A study of Mus musculus with 6 samples.

Results

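Leukocyte integrin chains are 10 genes that encode subunits of the adhesion receptors of blood cells: Itgam, Itgax, Itgal, Itgb2, Itga4, Itgb1, Itgb7, Itgb3, Itgav and Itga2b. They were taken by gene name, and each of the 10 was found among the 23284 genes listed in every library. The sorted cells were EGFP-positive and came from the calvaria (skull vault) of CX3CR1-EGFP mice, where a green fluorescent protein reports use of the fractalkine receptor gene. One group of 3 libraries came from mice given lipopolysaccharide (LPS) at the calvarial periosteum with 10 mg/kg CTLA4-Ig (abatacept), a fusion of CTLA-4 with an antibody Fc part that binds CD80 and CD86. The other group of 3 came from mice given the same LPS with 10 mg/kg whole human IgG as the control. Cells of both groups were collected 5 days later. All mice of both groups had therefore received LPS, and an LPS-free group was not analysed here. The labels number biological replicates but do not say which animals went into each library, so p-values measure the spread between libraries. The sort kept all EGFP-positive cells, and levels are averages over a mixed population. In such bulk libraries, fewer cells of a type and less RNA per cell cannot be told apart.

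Integrins are pairs of 1 α and 1 β chain, and neither chain reaches the cell surface in quantity without its partner. The β2 chain (Itgb2, CD18) pairs with αM (Itgam, CD11b), αX (Itgax, CD11c), αL (Itgal, CD11a) or αD (Itgad), and these receptors bind ICAM proteins, fibrinogen and the complement fragment iC3b during firm adhesion and phagocytosis. The α4 chain (Itga4) pairs with β1 (Itgb1) or β7 (Itgb7) and binds VCAM-1, fibronectin or MAdCAM-1. The β3 chain (Itgb3) pairs with αV (Itgav), the vitronectin receptor through which osteoclasts attach to bone, or with αIIb (Itga2b), the fibrinogen receptor of platelets.

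The libraries carried transcripts of several blood lineages. Estimated depth was 8450000 to 10200000 fragments per library under CTLA4-Ig and 8480000 to 9230000 under control IgG. All 10 monocyte and macrophage markers and all 12 matched neutrophil markers averaged at least 1 FPKM (fragments relative to the length of the transcript and the size of the library). The summed neutrophil markers stood at 42781 to 54560.1 FPKM under CTLA4-Ig and 28640.3 to 35314 under control IgG, without overlap. Most of that sum was 2 genes, Ngp and Camp, which averaged 14876 and 12734 FPKM over the 6 libraries. Taken singly, 6 of the 12 markers lay higher without overlap, beside 6.5% of all genes tested, and the rest overlapped. The monocyte and macrophage markers summed to 21748 to 23057 FPKM under CTLA4-Ig and 16859 to 22441 under control IgG. Mast cell and basophil markers were also present, at 717 to 992 FPKM under CTLA4-Ig and 533 to 953 under control IgG. Cx3cr1, the gene whose locus carries the reporter, averaged 22.6 FPKM over the 6 libraries. Of the 6 osteoclast markers, 2 averaged at least 1 FPKM, the enzyme genes Acp5 and Ctsk, and the fusion gene Dcstamp averaged 0.0554 FPKM. Control library 1 had the lowest monocyte and macrophage sum, at 16859 FPKM against 22441 and 22225 in the other control libraries. Most of that sum was 1 gene, Lyz2, at 13783 FPKM there against 19377 and 19138 in the other controls. Of the 10 markers, 2 had their lowest value in control library 1 and 3 their highest.

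The sequences shown here are the promoter regions of 2 pairs of chains whose levels the next paragraphs compare. Each runs from 250 bases before to 50 bases after a transcript start, 5′ to 3′ on the gene's strand, from RefSeq on GRCm38.p6. Of the 10 chains 7 had an entry, and each of these starts lay 0 or 1 base from a GENCODE transcript start. For Itgb7 that start lies 1470 bases, and for Itgav 2094 bases, inside the outer boundary of the RefSeq gene whose coordinates are given with the values. The first pair is Itgam and Itgax, which are consecutive integrin genes on chromosome 7, are read from the same strand and share the β2 partner. The second pair is Itgb7 and Itgb1, the alternative partners of α4. Capitals mark GAGGAA or its complement TTCCTC, letters of the kind bound by the myeloid factor PU.1.
Itgam, chr7:128062390-128062689, plus strand: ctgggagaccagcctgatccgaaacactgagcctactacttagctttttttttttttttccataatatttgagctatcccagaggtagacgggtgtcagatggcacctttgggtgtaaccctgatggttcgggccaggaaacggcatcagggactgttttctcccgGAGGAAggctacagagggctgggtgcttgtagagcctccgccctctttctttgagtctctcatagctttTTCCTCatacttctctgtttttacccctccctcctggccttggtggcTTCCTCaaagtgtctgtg
Itgax, chr7:128129300-128129599, plus strand: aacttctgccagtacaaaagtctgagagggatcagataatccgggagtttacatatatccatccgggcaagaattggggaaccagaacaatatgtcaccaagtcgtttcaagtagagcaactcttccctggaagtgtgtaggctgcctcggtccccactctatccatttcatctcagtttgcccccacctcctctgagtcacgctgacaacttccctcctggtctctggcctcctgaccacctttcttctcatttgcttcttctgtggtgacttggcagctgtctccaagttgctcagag
Itgb7, chr15:102231886-102232185, minus strand: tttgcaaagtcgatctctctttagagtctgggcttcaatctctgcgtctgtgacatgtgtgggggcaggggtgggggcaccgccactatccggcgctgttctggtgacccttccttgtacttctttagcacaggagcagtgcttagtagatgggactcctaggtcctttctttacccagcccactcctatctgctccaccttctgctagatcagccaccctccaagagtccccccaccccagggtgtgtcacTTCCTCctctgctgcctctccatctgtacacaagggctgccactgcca
Itgb1, chr8:128685404-128685703, plus strand: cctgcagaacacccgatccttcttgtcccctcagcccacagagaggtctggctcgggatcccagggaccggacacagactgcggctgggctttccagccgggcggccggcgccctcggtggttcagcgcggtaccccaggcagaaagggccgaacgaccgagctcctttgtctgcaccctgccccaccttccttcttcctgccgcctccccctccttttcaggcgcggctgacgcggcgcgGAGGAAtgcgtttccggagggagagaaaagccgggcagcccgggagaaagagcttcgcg
The Itgam window held 3 matches, 1 on the gene's strand and 2 on the other, and the Itgax window held 0. The Itgb7 and Itgb1 windows each held 1. Over the 7 chains with an entry, 5 windows held at least 1 match, as did 28.3% of all 27025 promoters searched. Searched in the same way on both strands, TGTGGT, letters of the kind bound by RUNX factors, was in the windows of Itgax and Itga4 and in 16.9% of all promoters. AGATAA, letters of the kind bound by GATA factors, was in that of Itgax and in 11.4% of all. Over the 7 windows 0 matches of one motif overlapped those of another, and the matches describe the windows and do not locate binding.

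The 10 chains fell into an abundant group of 6 and a low group of 4. FPKM is scaled to transcript length, so levels of different genes can be set side by side, though only roughly. The annotation that set those lengths is not given in the sources used here. Itgb2 was the most abundant chain, at 390.2 FPKM over the 6 libraries and rank 233 of all 23284 genes. Itgam followed at 260.1 FPKM, Itgb7 at 124, Itgal at 102, Itgb1 at 73.0 and Itga4 at 48.4. Then came a gap: in each library Itga4 was 3.68 to 8.18 times as high as Itgb3, which averaged 9.63 FPKM. Itga2b averaged 8.0 FPKM, Itgax 6.98 and Itgav 6.22. Within the abundant group, neighbours in this order did not overlap over the 6 libraries, except that Itgb7 and Itgal did, with Itgb7 higher in 5 of 6. Within the low group each neighbour overlapped the next. Between the ends of the order, Itgb2 was 52.3 to 70.6 times as high as Itgav.

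**Figure D1:**
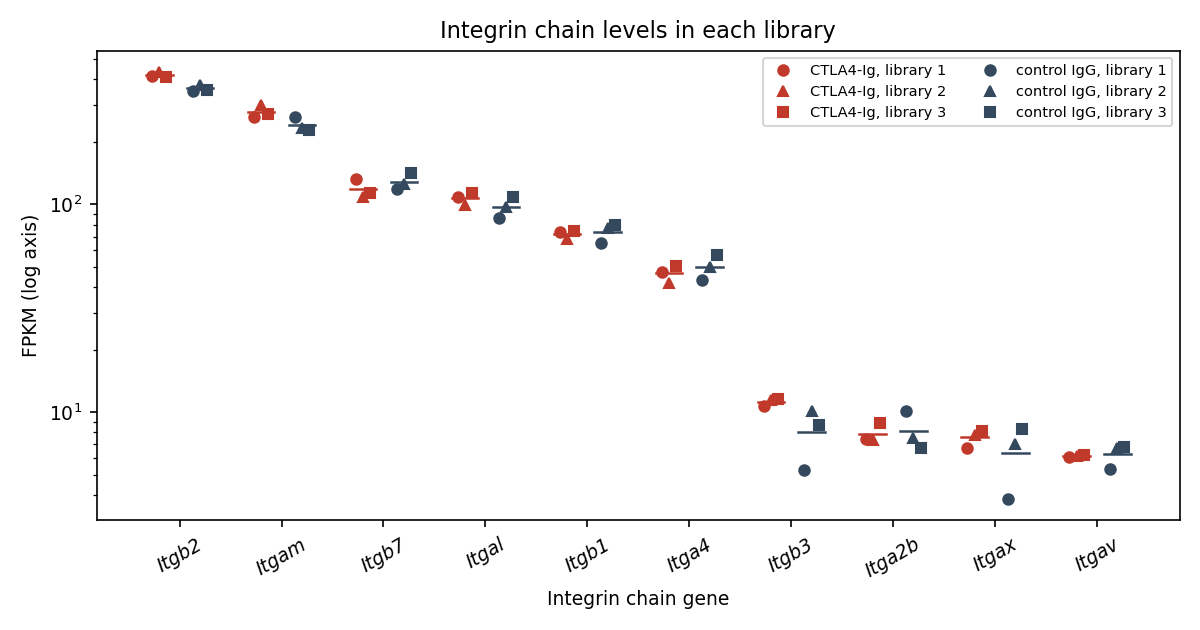
FPKM of each chain in each library on a log axis, CTLA4-Ig libraries in red on the left and control IgG libraries in dark blue on the right of each gene; short lines are group means and marker shapes are library numbers. The 6 abundant chains lie above 40 FPKM and the 4 low chains under 12 FPKM. Control library 1 is the lowest point for Itgb3 and Itgax, and also for Itgb2, Itgal, Itgb1 and Itgav. It is the highest point for Itga2b.

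Setting CTLA4-Ig against control IgG asks whether the drug went with a difference in the cells' adhesion receptors, since the series title names cellular movement. The β2 chain and its 3 tested partners had positive log2 fold changes, and the α4 chain and its partners had values below 0. The largest value, 0.48 for β3, was 0.24 without control library 1, and Itgax became -0.02 without that library. Without control library 3, Itga4 was at -0.003 and Itgb1 at 0.03. No chain passed the test. In limma, 0 of the 10 chains had a Benjamini-Hochberg adjusted p under 0.05, as did 0 of 10865 genes tested (0%), and the adjusted p of the chains ran from 0.7196 to 0.9893. At an unadjusted p under 0.05 there were 3 of the 10 chains, Itgb2, Itgam and Itgb3, all with a positive log2 fold change, where 4.09% of all tested genes had such a p with a positive value, 1.98% with a negative one and 6.07% in either direction. For 2 of the 10, Itgb2 and Itgb3, every CTLA4-Ig library lay above every control. Over all genes tested 6.5% lay above in this way, 5.69% below and 12.2% in either direction. The 10 chains split into 5 positive and 5 negative log2 fold changes with a median of 0.06, beside a median of -0.01 and 47.7% positive over all genes tested. All 10 chains passed the filter of a mean of at least 1 FPKM.

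Itgb2 (chromosome 10, 77530329 to 77565708, GRCm38) had 415, 433 and 409 FPKM under CTLA4-Ig, and 352, 375 and 357 FPKM under control IgG. The lowest CTLA4-Ig library lay above the highest control. The group means were 419 ± 12.4 FPKM under CTLA4-Ig and 361 ± 11.8 under control IgG (SD, n = 3 each). On log2(FPKM + 1), the scale of all fold changes here, which understates those of low genes, the difference was 0.21 ± 0.06 (SE; 95% interval 0.08 to 0.35), with a limma adjusted p of 0.7196 and an unadjusted p of 0.00766. The chain was thus 1.16-fold as high under CTLA4-Ig, and leaving out any 1 library gave 0.19 to 0.24. At an estimated 8874 fragments or more per library, counting error alone is about 1.06%, below the replicate spread of 2.95% under CTLA4-Ig and 3.25% under control IgG.

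Itgam, whose αM chain makes Mac-1, the main adhesion receptor of neutrophils and monocytes (chromosome 7, 128062640 to 128118491), had 262, 302 and 273 FPKM under CTLA4-Ig, and 262, 233 and 229 FPKM under control IgG. The groups overlapped by 1 control library, which equalled the lowest CTLA4-Ig library at this rounding. The log2 fold change was 0.21 ± 0.08 (SE; 95% interval 0.01 to 0.40; limma adjusted p = 0.7865), and leaving out any 1 library gave 0.15 to 0.27. Itgal, whose αL chain makes LFA-1 and which lies 728 kb before Itgam on chromosome 7 (127296139 to 127335137), had 108, 99.1 and 114 FPKM under CTLA4-Ig, and 86.3, 97.4 and 108 FPKM under control IgG. Its groups overlapped, and the log2 fold change was 0.14 ± 0.10 (SE, 95% interval -0.09 to 0.36, limma adjusted p = 0.8899). Leaving out any 1 library gave 0.05 to 0.22.

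Itgax, long used as a marker of dendritic cells and also carried by monocytes (chromosome 7, 128129526 to 128150657), was low, with 6.74, 7.80 and 8.15 FPKM under CTLA4-Ig, and 3.82, 7.06 and 8.29 FPKM under control IgG. Control library 1 was the lowest of the 6 and control library 3 the highest. The log2 fold change of 0.26 ± 0.24 (SE; limma adjusted p = 0.9038) became -0.02 without control library 1. Summed dendritic cell markers in that library were 69.8 FPKM, the highest of the 6 libraries, but of these Flt3 held 46.6 FPKM. Of the 6 markers, 4 had their lowest value there, among them Cd209a at 4.69 FPKM, and 2 their highest. Their part in the Itgax value was not tested. Itgad, the remaining β2 partner and the next integrin gene after Itgax on chromosome 7, averaged 0.404 ± 0.109 FPKM under CTLA4-Ig and 0.352 ± 0.232 under control IgG (SD, n = 3 each). The consecutive integrin genes Itgam, Itgax and Itgad, separated by 11 and 23.3 kb, thus differed widely in level. Itgam was 27.6 to 68.6 times as high as Itgax and 378 to 1219 times as high as Itgad. Itgad rests on an estimated 6.85 to 23.4 fragments per library and was not tested.

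**Figure D2:**
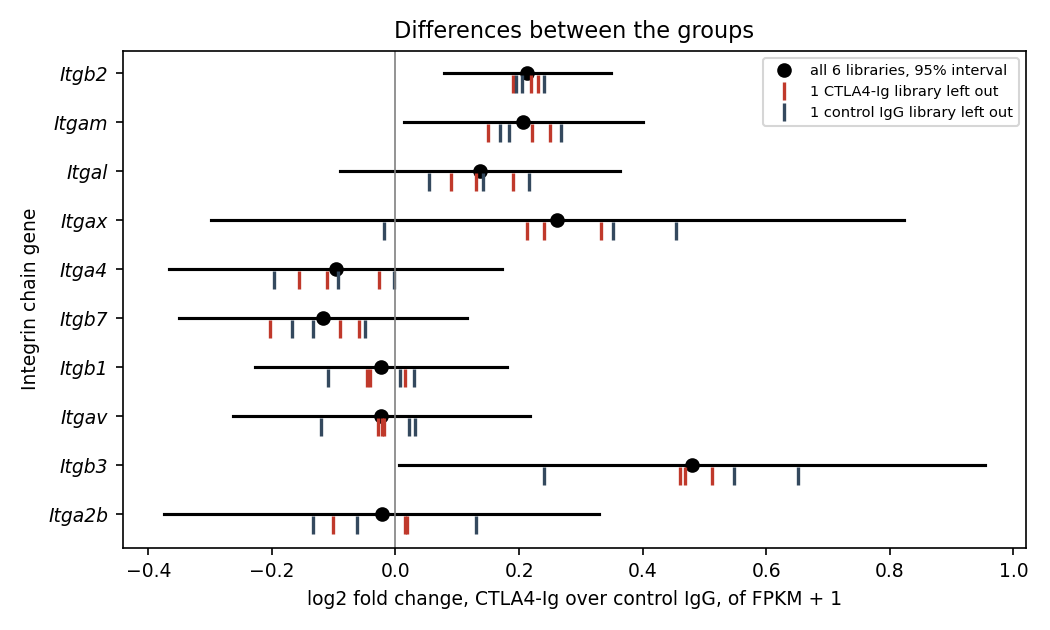
Log2 fold change of each chain, CTLA4-Ig over control IgG, with all 6 libraries (black point, with limma's 95% interval as the line) and with 1 library left out (red ticks for CTLA4-Ig libraries, dark blue for control IgG libraries). The ticks of Itgb2 stay between 0.19 and 0.24, while those of Itgax run from -0.02 to 0.45 and those of Itgb3 from 0.24 to 0.65.

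The α and β2 transcripts kept nearly the same balance in the 6 libraries. The FPKM of Itgam, Itgal, Itgax and Itgad together was 0.908, 0.945 and 0.966 of that of Itgb2 under CTLA4-Ig, and 1.0, 0.903 and 0.968 under control IgG. Itgam made up 69.5, 73.8 and 69.0% of the α transcripts that can pair with β2 under CTLA4-Ig, and 74.4, 68.9 and 66.2% under control IgG. Both measures overlapped between the groups. The ratio of Itgam to Itgal was 2.63 ± 0.363 under CTLA4-Ig and 2.52 ± 0.474 under control IgG (SD, n = 3 each). It was 3.04 both in CTLA4-Ig library 2 and in control library 1. The neutrophil marker sum was 54560.1 FPKM in the former, the highest of its group, and 28640.3 FPKM in the latter, the lowest of all. Of the 12 neutrophil markers, however, only 3 (Ltf, Camp and Ngp) were lowest in control library 1, and Mmp8 was highest there at 553 FPKM. The part of neutrophils in this ratio was not tested. The sum of the 10 chains was 1071, 1085 and 1069 FPKM under CTLA4-Ig, and 953, 989 and 1002 FPKM under control IgG. That sum was mostly β2 and αM, and Itgb2 alone made up 38.8, 39.9 and 38.3% of it under CTLA4-Ig, and 37.0, 37.9 and 35.6% under control IgG.

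**Figure D3:**
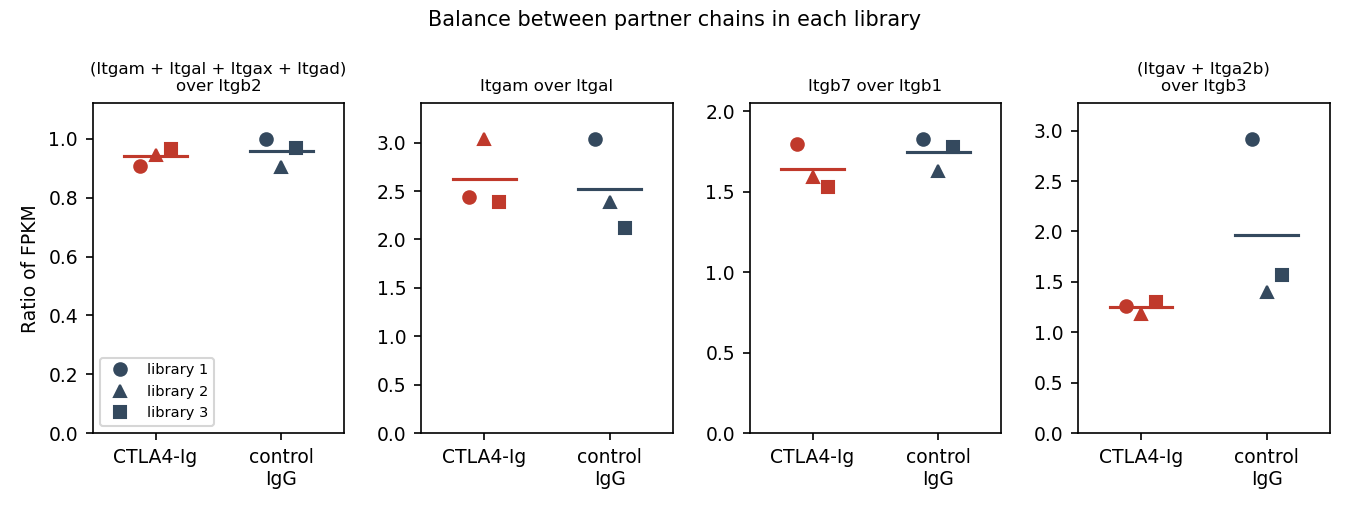
Ratios of FPKM between partner chains in each library, under CTLA4-Ig on the left and control IgG on the right of each panel; lines are group means, marker shapes are library numbers and each vertical axis starts at 0. The β2 partners stay at 0.903 to 1.0 of Itgb2, and control library 1 stands out at 2.92 in the ratio of αV and αIIb to β3.

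Neutrophil markers were mostly higher in mean under CTLA4-Ig, without passing the test. Of the 12 tested neutrophil markers 10 were positive on the log2 scale, with a median difference of 0.54, 7 had an unadjusted p under 0.05 (beside 6.07% of all genes tested) and 0 passed after adjustment in limma. With quantile normalization the median was 0.27 and 4 had such a p, as did 4 when low genes were kept in the fit and 4 without CTLA4-Ig library 2. Elane and Mpo, of early neutrophil granules, had values of -0.05 and -0.01. The 10 monocyte and macrophage markers had 2 positive values and a median of -0.05. Itgb2l (pactolus), a gene related in sequence to Itgb2 and named here after its values were seen, had 157, 218 and 167 FPKM under CTLA4-Ig, and 121, 128 and 115 FPKM under control IgG. Its groups did not overlap, as was so for 12.2% of all genes tested, with a log2 fold change of 0.56 ± 0.12 (SE, limma adjusted p = 0.7196). Reads that the authors' counting could have split between Itgb2 and Itgb2l would make both values uncertain. The part of the neutrophil markers in the values of Itgb2 and Itgam was not tested.

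The α4 chain and its partners showed no separation of the groups. Itga4 (chromosome 2, 79255426 to 79333114) had 47.4, 42.0 and 50.5 FPKM under CTLA4-Ig, and 43.3, 50.1 and 57.0 FPKM under control IgG. The groups overlapped, and the log2 fold change was -0.10 ± 0.11 (SE, 95% interval -0.37 to 0.17, limma adjusted p = 0.9267). Leaving out any 1 library gave -0.196 to -0.003. Itga4 overlaps Cerkl on the other strand, which averaged 2.26 FPKM, and whether the counting used strand is not given in the sources used here. Itgb7 (chromosome 15, 102215994 to 102233405), whose chain also serves gut-homing lymphocytes and mast cell precursors, had 133, 109 and 114 FPKM under CTLA4-Ig, and 119, 125 and 141 FPKM under control IgG. The highest value was a control and the lowest a CTLA4-Ig library, with a log2 fold change of -0.12 ± 0.10 (SE; 95% interval -0.35 to 0.12; limma adjusted p = 0.9038).

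Itgb1, whose β1 chain has the widest choice of α partners (chromosome 8, 128685654 to 128733579), had 74.0, 68.4 and 74.4 FPKM under CTLA4-Ig, and 65.1, 76.8 and 79.2 FPKM under control IgG. All 3 CTLA4-Ig values lay within the control range, and the log2 fold change was -0.02 ± 0.09 (SE; 95% interval -0.23 to 0.18; limma adjusted p = 0.9828). Itgb7 was above Itgb1 in each library, by 1.80, 1.59 and 1.53 times under CTLA4-Ig, and by 1.83, 1.63 and 1.78 times under control IgG. The αE chain, the other partner of β7, was low, with Itgae at 0.182 ± 0.0326 FPKM under CTLA4-Ig and 0.253 ± 0.157 under control IgG (SD, n = 3 each). T cell markers summed to 9.17 to 13.1 FPKM under CTLA4-Ig and 7.52 to 16.5 under control IgG, and mast cell and basophil markers to 717 to 992 FPKM under CTLA4-Ig and 533 to 953 under control IgG. The part of these cells in the value of Itgb7 was not tested.

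Itgb3 (chromosome 11, 104608000 to 104670476) had 10.7, 11.4 and 11.6 FPKM under CTLA4-Ig, and 5.30, 10.1 and 8.65 FPKM under control IgG. All 3 CTLA4-Ig libraries lay above the controls, closely together, and control library 1 stood below the other 5 libraries. The means were 11.2 ± 0.465 FPKM under CTLA4-Ig and 8.02 ± 2.48 under control IgG (SD, n = 3 each), a log2 fold change of 0.48 ± 0.20 (SE; 95% interval 0.005 to 0.95; limma adjusted p = 0.8161). Without control library 1 the log2 fold change was 0.24. Each library held an estimated 259.7 fragments of Itgb3 or more. The counting error was 6.20% in the library with the fewest, control library 1, and is smaller in the CTLA4-Ig libraries. The replicate spread was 4.14% under CTLA4-Ig and 30.9% under control IgG.

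The α partners of β3 did not show the same order of libraries. Itgav (chromosome 2, 83722303 to 83806917) had 6.10, 6.13 and 6.21 FPKM under CTLA4-Ig, and 5.34, 6.72 and 6.83 FPKM under control IgG. The CTLA4-Ig values lay within the control range, with a log2 fold change of -0.02 ± 0.10 (SE; 95% interval -0.26 to 0.22; limma adjusted p = 0.9858). Itga2b (chromosome 11, 102453297 to 102469883) had 7.41, 7.38 and 8.87 FPKM under CTLA4-Ig, and 10.1, 7.51 and 6.71 FPKM under control IgG, a log2 fold change of -0.02 ± 0.15 (SE; 95% interval -0.38 to 0.33; limma adjusted p = 0.9893). Control library 1 was the highest of the 6 for Itga2b while it was the lowest for Itgb3. The ratio of Itgav plus Itga2b to Itgb3 was 1.26, 1.18 and 1.30 under CTLA4-Ig, and 2.92, 1.40 and 1.57 under control IgG.

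Itga2b, known best from platelets, averaged more than any single gene of the platelet list. The 10 platelet and megakaryocyte markers together summed to 6.65 to 11.1 FPKM under CTLA4-Ig and 6.07 to 10.3 under control IgG. Of them 2 averaged at least 1 FPKM, Pf4 at 4.10 and Gp9 at 1.27, and Gp6 was listed at 0 in all 6 libraries. The basophil markers Mcpt8 and Prss34 averaged 274 and 423 FPKM. In control library 1, where Itga2b was highest, Pf4 was also at its highest, 6.63 FPKM. Of the 9 platelet and megakaryocyte markers above 0, 2 were highest and 1 lowest in that library. Of the 5 mast cell and basophil markers, 3 had their lowest value there, while Cpa3 and Ms4a2 were lowest in CTLA4-Ig library 1. Osteoclast markers, relevant to αV and β3, summed to 18.5 to 29.7 FPKM under CTLA4-Ig and 20.7 to 30.9 under control IgG, and the highest sum was in control library 1, where Itgb3 was lowest. Of that sum Acp5 held 27.0 FPKM, while Ctsk, at 3.13 FPKM there, was highest in control library 3 at 4.98 FPKM. The part of these cell types in the chains' values was not tested.

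Outside the 10 chains, 4 of 16 other integrin genes averaged at least 1 FPKM. Itgb5, the αV partner that binds vitronectin, averaged 19.2 ± 2.48 FPKM under CTLA4-Ig and 20.9 ± 2.34 under control IgG, above Itgb3 in both groups (SD, n = 3 each). Itga5, the fibronectin receptor's α chain, averaged 14.2 ± 1.03 FPKM under CTLA4-Ig and 16.8 ± 2.25 under control IgG, with a log2 fold change of -0.22 ± 0.10 (SE; limma adjusted p = 0.8484). The log2 fold change was 0.12 for Itga6, a laminin receptor chain, and -0.05 for Itga1, a collagen receptor chain. In limma 0 of these 4 passed after adjustment and 0 had an unadjusted p under 0.05.

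Genes that switch integrins on or off from inside the cell had a median log2 fold change near 0. Of 17 tested, 11 were positive on the log2 scale, with a median difference of 0.02. After adjustment in limma 0 passed, and 1 had an unadjusted p under 0.05 (beside 6.07% of all genes tested). That was Sipa1, which encodes a GTPase-activating protein that turns off Rap1, at 79.6, 79.8 and 75.7 FPKM under CTLA4-Ig and 71.5, 69.1 and 69.8 under control IgG. Its groups did not overlap, as was so for 12.2% of all genes tested, and the log2 fold change was 0.16 ± 0.05 (SE, limma adjusted p = 0.7217). The difference was 0.20 for Rasgrp2, which activates Rap1, -0.06 for the adaptor gene Fyb and -0.06 for Dok1, whose protein competes with talin for β tails. Talin itself, the adaptor that joins β tails to actin, was at 164 ± 11.2 FPKM under CTLA4-Ig and 159.6 ± 1.17 under control IgG for Tln1 (SD, n = 3 each). Kindlin-3, needed for β2 and β3 activation, was at 135 ± 3.45 FPKM under CTLA4-Ig and 131 ± 20.8 under control IgG for Fermt3 (SD, n = 3 each).

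Genes of signalling from bound integrins had 16 of 18 positive log2 fold changes, with a median of 0.09, beside 47.7% positive and a median of -0.01 over all genes. With quantile normalization 14 of the 18 were positive and the median was 0.07. In limma 0 passed after adjustment and 1 had an unadjusted p under 0.05 (beside 6.07% of all genes tested). That was Pxn, which encodes the focal adhesion protein paxillin, at 106, 117 and 95.7 FPKM under CTLA4-Ig and 91.0, 89.9 and 86.3 under control IgG, a log2 fold change of 0.25 ± 0.08 (SE; limma adjusted p = 0.7217). The log2 fold change was 0.16 for Parvg, which encodes the parvin of blood cells, and -0.11 for the Src family kinase gene Lyn. The median of the neutrophil markers in the same libraries was 0.54, and 0.27 with quantile normalization; their part in this list was not tested.

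Transcripts of several integrin ligands were found in the sorted cells too. Of 21 ligand genes 11 were tested, with 5 positive values and a median of -0.03; 0 passed after adjustment in limma and 0 had an unadjusted p under 0.05. Fn1, fibronectin, had 408, 311 and 329 FPKM under CTLA4-Ig, and 782, 412 and 389 FPKM under control IgG. Thbs1, thrombospondin, had 5.87, 5.47 and 4.16 FPKM under CTLA4-Ig, and 19.2, 4.90 and 5.69 FPKM under control IgG. In both, control library 1 was the highest of the 6. C3, the source of iC3b, had 412, 418 and 416 FPKM under CTLA4-Ig, and 359, 371 and 403 FPKM under control IgG. Its groups did not overlap, as was so for 12.2% of all genes tested, and the log2 fold change was 0.14 ± 0.06 (SE, limma adjusted p = 0.8470). The log2 fold change of Spp1, osteopontin, was -0.18, and the ICAM and VCAM genes Icam1 and Vcam1 averaged 10.8 and 16.3 FPKM. Madcam1 and Fgb were listed at 0 in all libraries.

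**Figure D4:**
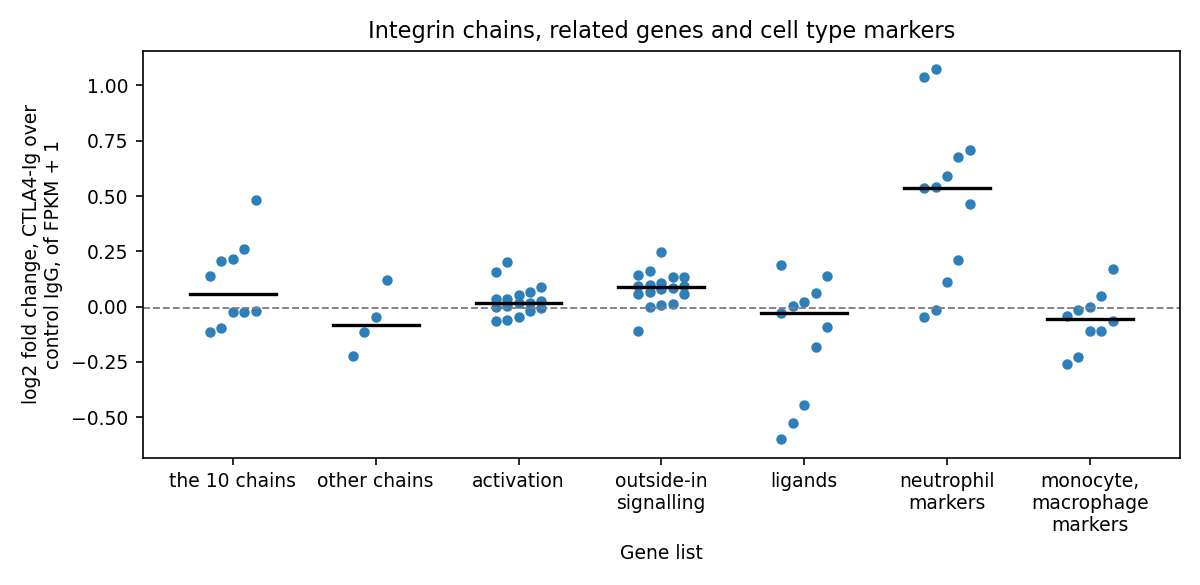
Log2 fold changes, CTLA4-Ig over control IgG, of the tested genes of each list, 1 point a gene, with the list median as a black line and the median of all tested genes as the dashed line. The medians of the integrin lists lie between -0.08 and 0.09, and that of the neutrophil markers at 0.54 (0.27 with quantile normalization).

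The genes whose pattern over the 6 libraries came nearest to that of Itgb2 were Tmem2, Zfp687 and Chst12. The root-mean-square difference of their log2 deviations from those of Itgb2 was 0.0191, 0.0221 and 0.0245. With 10865 genes and 6 libraries, such closeness is a description of these libraries.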

How the data were processed

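The measurement was RNA-seq of 6 libraries. Per the labels' protocols the kits were miRNeasy for RNA and stranded TruSeq mRNA for libraries. The submitters' processing notes name mm10 and TopHat2 2.0.13, Bowtie2 2.2.3, SAMtools 0.1.19 with Cuffnorm 2.2.1; settings, annotation and strand use: not given in the sources used here. Deposited values are FPKM per gene name, scaled between libraries by the authors. Coordinates and promoters are RefSeq's (GRCm38.p6, the build of mm10).

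FPKM files hold no counts. Depth was estimated where low values of genes with 1 GENCODE transcript over 600 bases, and at 0 in at least 3 libraries, pile up (window 10%). Fragments per chain use the longest coding transcript, and the errors derived from them cover counting only.

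Log2(FPKM + 1) was fitted in limma 3.58.1 (R 4.3.3; lmFit, eBayes with a trend, group only) over the 10865 genes averaging 1 FPKM or more. P-values were Benjamini-Hochberg adjusted over all of these, with a threshold of 0.05, and the fit was tested on simulated data. Python 3.11.15 with pandas 2.3.3 and matplotlib 3.10.9 gave ratios and figures.

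Chains, lists and rules were chosen with earlier results of these data known. Named beside the chains are, per integrin list, the 4 tested members with the smallest unadjusted p (1 of them is not reported here), genes with a partner role and the 3 nearest to Itgb2. Itgb2l, Tln1, Fermt3, Icam1, Vcam1, Madcam1, Fgb and single markers were named after their values were seen. Of 168 listed genes 167 were matched, Adgre1 as Emr1; Ly6g was not. Alternatives were another pseudocount (0.1), other filters (none, or a mean of 5 FPKM), other scalings (median of ratios, quantile), array weights, the replicate number as a block, and each library left out. Over all genes, same-numbered libraries did not deviate together in any of the 3 pairs. The numbers were not taken as pairs, though this check cannot exclude pairing.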

Additional observations from a re-analysis of the deposited data

How the results depend on the processing

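Itgb2, Itgam, Itgal, Itgb3, Itga4 and Itgb7 kept their sign under all 13 alternatives, and no chain passed in any of them (smallest limma adjusted p 0.501). For Itga4 the value was close to 0, at -0.0028, without control library 3. The value of Itgb7 was -0.050 in that setting, and that of Itgal was 0.055 without control library 1. Of 130 log2 fold changes, 10 took the opposite sign. With 1 library left out, Itgax ran from -0.0189 (no control library 1) to 0.454, Itgb1 from -0.110 to 0.0302, Itgav from -0.121 to 0.0315 and Itga2b from -0.134 to 0.130 (no control library 1). The other opposite values were 0.0150 and 0.0181 for Itga2b without CTLA4-Ig library 1 or 2, 0.0146 for Itgb1 without CTLA4-Ig library 2, and 0.00743 for Itgb1 and 0.0211 for Itgav without control library 2. Array weights gave 0.0558 for Itga2b. The difference in the Itgam share of β2 partners, 0.932 percentage points in all, ran from -0.871 (no control library 3) to 3.19, with -0.555 when CTLA4-Ig library 2 was dropped. That in the ratio of partners to Itgb2 ran from -0.0451 to 0.00392 (no control library 1). The causes were not tested.

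Over all genes limma called 0 at an adjusted p under 0.05 and 659 at an unadjusted one; leaving out 1 library gave 0 to 6, and 347 to 868 unadjusted. The replicate block gave 0 and 619. It lowered the SE of some chains, as for Itgb3 (0.1997 to 0.1581), and raised that of others, as for Itgam (0.0813 to 0.0906). Over all genes, deviations of same-numbered libraries correlated at -0.154, -0.0942 and -0.0235, which cannot exclude pairing. The chains at an unadjusted p under 0.05 numbered 1 to 3 over the alternatives, with Itgb2 among them each time. The 4 low chains rest on fewer fragments, which limits their precision.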
